A study of Mus musculus with 21 samples.

Results

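The 6 Dlx genes of the mouse (Dlx1 to Dlx6) and 3 transcripts from the opposite strand of their loci (Dlx1as, Dlx4os and Dlx6os1) were followed by RNA-seq through the pharyngeal arches and the developing outer ear. The 9 members were taken by gene symbol from the 24594 genes of each of the 2 deposited count tables, and all 9 passed the filter on low counts in both (at least 1 CPM, a count scaled to its library's total, in at least 2 libraries). The genotype series held the second and the third pharyngeal arch (PA2 and PA3) dissected at embryonic day E10.5, either of the wild type (WT) or of homozygotes for a deletion of HIRE1 (HIRE1del), a distal region on chromosome 6 with several super-enhancers, made with CRISPR-Cas9 in C57Bl/6J zygotes. In the stage series, embryos carried Wnt1::Cre and a ROSA RFP reporter, in which the Wnt1 promoter marks neural crest progenitors and their descendants, and red cells were sorted from E10.5 PA2 and, at E12.5 and E14.5, out of the pinna (the outer ear). There were 7 groups of 3 libraries, the mice were of mixed C57Bl/6J and CD1 background, embryos of both sexes were pooled, and the labels call all samples cranial neural crest cells although no sorting is stated for the genotype series.

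Dlx proteins are homeodomain transcription factors related to Distal-less of the fly. The mouse genes lie as 3 convergent pairs, Dlx1 with Dlx2, Dlx5 with Dlx6, and Dlx3 with Dlx4, and the members of a pair share enhancers. In the arch mesenchyme their domains are nested along the proximodistal axis. Dlx1 and Dlx2 are expressed along most of the arch, Dlx5 and Dlx6 in its distal part downstream of endothelin signalling, and Dlx3 and Dlx4 nearest to the tip. The pairs are therefore called proximal (Dlx1, Dlx2), distal (Dlx5, Dlx6) and distal-most (Dlx3, Dlx4) here. Dlx6os1 is the locus of Evf2, a long noncoding RNA that runs through the enhancers between Dlx5 and Dlx6, and Dlx1as is transcribed across Dlx1 from the other strand.

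On GRCm38 with the GENCODE M21 annotation, Dlx1 (ENSMUSG00000041911) lies on the plus strand of chr2:71528113-71533981 and Dlx2 (ENSMUSG00000023391) on the minus strand of chr2:71543408-71546754, with 9426 bases between them. Dlx6 (ENSMUSG00000029754, plus strand, chr6:6863334-6868568) and Dlx5 (ENSMUSG00000029755, minus strand, chr6:6877805-6882085) are 9236 bases apart. Dlx3 (ENSMUSG00000001510, plus strand, chr11:95120119-95125296) and Dlx4 (ENSMUSG00000020871, minus strand, chr11:95140447-95146263) are 15150 bases apart. Dlx5 and Dlx6 are on the same chromosome as Hoxa2, at a distance of 45.3 Mb. According to the study, both Hoxa2 and Hoxa3 need HIRE1 for their expression in cranial neural crest. The antisense members are Dlx1as (ENSMUSG00000084946, minus strand, chr2:71516454-71537891), Dlx4os (ENSMUSG00000086552, plus strand, chr11:95145052-95159047) and Dlx6os1 (ENSMUSG00000090063, minus strand, chr6:6820189-6871592). Exons of Dlx1as share 335 bases with exons of Dlx1, exons of Dlx4os share 79 bases with Dlx4, and Dlx6os1 shares 0 exon bases with Dlx6, which lies within an intron of it.

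Promoter windows from RefSeq (GRCm38.p6, 250 bases before to 50 after a transcript start) were found for 4 of the 9 members, in 5 windows. Those of the proximal pair and both of Dlx6os1 are shown because these members stand at the ends of the arch and genotype comparisons: the proximal pair differed least between the arches, and Dlx6os1 had the only interaction of arch and genotype that a test called. The letters TAATTA, a palindrome that Dlx and other homeodomains bind, are in capitals and were searched on both strands.
Dlx1 (plus strand, chr2:71529195-71529494): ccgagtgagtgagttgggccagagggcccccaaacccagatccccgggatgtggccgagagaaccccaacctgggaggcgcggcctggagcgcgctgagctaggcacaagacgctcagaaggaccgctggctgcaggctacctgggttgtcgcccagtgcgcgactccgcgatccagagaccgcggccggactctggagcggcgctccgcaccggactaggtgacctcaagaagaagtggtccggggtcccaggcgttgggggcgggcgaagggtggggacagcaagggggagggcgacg
Dlx2 (minus strand, chr2:71546705-71547004): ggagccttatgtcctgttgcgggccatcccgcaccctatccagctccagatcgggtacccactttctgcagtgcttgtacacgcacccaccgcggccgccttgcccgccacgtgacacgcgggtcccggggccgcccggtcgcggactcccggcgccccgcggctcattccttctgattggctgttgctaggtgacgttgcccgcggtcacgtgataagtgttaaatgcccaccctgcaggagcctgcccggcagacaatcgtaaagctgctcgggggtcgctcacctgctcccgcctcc
Dlx6os1, start between Dlx6 and Dlx5 (minus strand, chr6:6869484-6869783): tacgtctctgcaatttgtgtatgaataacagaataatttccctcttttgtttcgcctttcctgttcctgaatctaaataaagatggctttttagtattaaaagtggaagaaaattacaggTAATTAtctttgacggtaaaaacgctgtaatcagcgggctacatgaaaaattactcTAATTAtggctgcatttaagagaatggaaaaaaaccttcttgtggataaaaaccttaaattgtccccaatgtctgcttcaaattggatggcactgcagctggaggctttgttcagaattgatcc
Dlx6os1, start before Dlx6 (minus strand, chr6:6861634-6861933): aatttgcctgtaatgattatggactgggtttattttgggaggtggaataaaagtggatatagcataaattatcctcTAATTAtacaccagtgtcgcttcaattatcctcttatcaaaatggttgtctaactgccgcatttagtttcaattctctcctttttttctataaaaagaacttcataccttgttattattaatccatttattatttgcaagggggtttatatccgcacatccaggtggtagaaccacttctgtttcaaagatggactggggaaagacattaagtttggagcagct
The first window of Dlx6os1 holds TAATTA at 2 places and the second at 1 place, while the windows of Dlx1, Dlx2 and Dlx4os hold it at 0 places. It occurs in 5.29% of the 32851 windows in the table, a share not matched for base content. GC made up 35.7 and 35.3% of the Dlx6os1 windows and 69.3, 66.3 and 53.3% of those of Dlx1, Dlx2 and Dlx4os. The median over all windows was 52.7%. The windows of Dlx1 and Dlx2 have 27 and 29 CG dinucleotides, those of Dlx6os1 5 and 3, and that of Dlx4os 11, beside a median of 7 over all windows.

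Depth was 25.8 to 32.2 M counts per library for the dissected arches and 25.8 to 49.1 M for sorted crest, where the E14.5 libraries were the deepest. Hoxa2 checked the genotype labels: every HIRE1del library lay below every WT library, at 4.75 to 7.09 against 73.4 to 84.2 CPM in PA2 and at 22.1 to 25.6 against 56.1 to 65.1 CPM in PA3. The share of each sex in the pools is not stated. Xist, a transcript of female cells, had 11825, 8208 and 3497 counts in PA2 WT and 3101, 2953 and 3779 in PA2 HIRE1del. In PA3 it had 18841, 11630 and 5150 counts in WT and 4346, 5652 and 4806 in HIRE1del. The part of sex in the Dlx values was not tested. The 6 markers of crest mesenchyme were all counted in every library and summed to 638 to 1077 CPM among dissected arches and to 1512 to 3965 CPM among sorted cells. Of the markers of other cells, the 5 erythroid genes summed to 1491 to 24019 CPM in the dissected arches and 1.73 to 10.4 CPM in the sorted cells, and the 8 epithelial genes to 237 to 642 and 11.04 to 48.6 CPM. Transcripts of other cells were thus counted beside those of crest in the dissected arches, and in such bulk samples fewer cells of a type and less RNA per cell cannot be told apart.

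The counts separated the strands in the stage series but not in the genotype series, which bears on the 3 antisense members. Tsix, which is antisense to Xist and shares 1980 exon bases with it, had 0.0104 to 0.0910% of the Xist count in the stage libraries but 11.3 to 15.4% in the genotype libraries. In the genotype series, reads of Dlx1 could therefore be counted for Dlx1as and the reverse. With even coverage over the exon lengths of the count table (763 bases for Dlx1as, against 1630 in GENCODE M21), the shared bases of Dlx1 could give 9.03 of the 28.0 CPM of Dlx1as in PA2 WT, and those of Dlx1as 12.3 of the 145 CPM of Dlx1, or less with the M21 length. For Dlx4os the same estimate is 0.372 of 10.1 CPM, and for Dlx6os1, with no shared exon bases, it is 0.

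Levels were compared between members per kilobase of the exons counted (CPM per kb). In PA2 WT, Dlx1as (36.7 ± 6.89 CPM per kb, SD, n = 3) and Dlx3 (35.1 ± 1.53) were highest and overlapped, followed by Dlx1 (26.96 ± 3.35), Dlx6os1 (23.9 ± 2.62), Dlx5 (22.5 ± 1.05), Dlx2 (17.9 ± 1.07) and Dlx6 (16.8 ± 1.19). Dlx4os (6.10 ± 1.74) and Dlx4 (4.71 ± 0.177) were lowest and overlapped. The level of Dlx1as includes reads that Dlx1 could give, estimated at 9.03 of its 28.0 CPM, so its rank is uncertain. In this order Dlx1 overlapped Dlx6os1 (and the wide range of Dlx1as), Dlx6os1 overlapped Dlx5, and Dlx2 overlapped Dlx6, whereas the other neighbours had separate ranges. In PA3 WT the order of the coding genes changed to Dlx1 (13.7 ± 1.79), Dlx2 (10.6 ± 1.57), Dlx5 (8.08 ± 1.26), Dlx3 (6.85 ± 2.65), Dlx6 (6.29 ± 0.578) and Dlx4 (0.368 ± 0.282), where Dlx5, Dlx3 and Dlx6 overlapped each other in turn. Dlx2 (9.07 to 12.2) also overlapped the wide range of Dlx3 (5.26 to 9.91) there. In the sorted crest of E10.5 PA2, Dlx3 led again (58.1 ± 4.07 CPM per kb), above Dlx5 (36.8 ± 4.40), Dlx2 (27.6 ± 2.41), Dlx1 (25.98 ± 1.124), Dlx6 (22.6 ± 0.601) and Dlx4 (5.95 ± 0.787), and Dlx2 overlapped Dlx1.

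**Figure D1:**
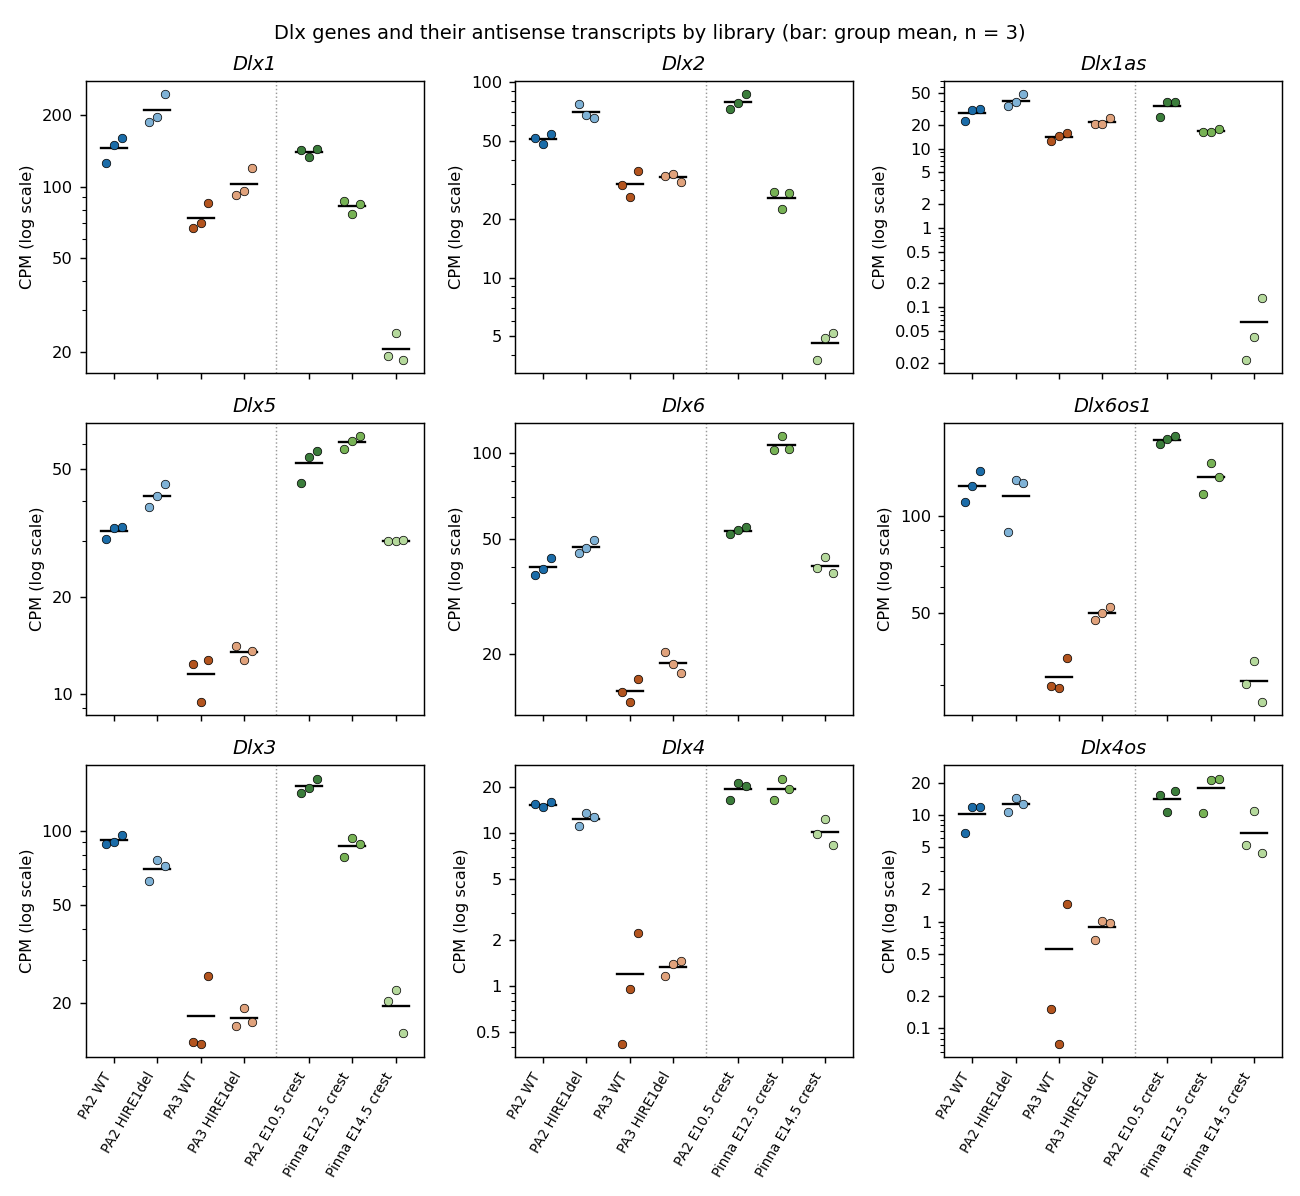
CPM (log scale) of each member in each library, with the group mean as a bar; the 4 groups left of the dotted line are the genotype series and the 3 groups right of it the stage series, which were not tested against each other. All 9 members were lower in PA3 than in PA2, and at E14.5 Dlx1as fell to 1, 2 and 6 counts.

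The first comparison asked how the Dlx genes differed between the arches. All 9 members were lower in PA3 than in PA2 of WT embryos, from 1.69 times lower (Dlx2) to 17.2 times lower (Dlx4os). All 9 were called at an adjusted p under 0.05 (edgeR quasi-likelihood test, Benjamini-Hochberg over 14383 genes), where 36.5% of all genes tested were called and 17.4% were called lower. Their median log2 fold change was -1.48, beside -0.00065 over all genes.

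The proximal pair differed least between the arches. Dlx1 had 126, 149 and 161 CPM in PA2 WT and 66.8, 70.2 and 85.0 CPM in PA3 WT. Its log2 fold change was -0.97 (SE 0.132 by edgeR, adjusted p 0.000102), so that 50.9% of the PA2 level was found in PA3. Dlx2 had 51.3, 47.8 and 53.9 CPM in PA2 and 29.7, 25.9 and 34.8 CPM in PA3. It fell by 0.76 (log2; SE 0.0981, edgeR adjusted p 6.95e-05). Both genes of the pair thus kept a larger share of their level in PA3 than the coding genes of the other pairs.

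Dlx5 and Dlx6, which specify the distal part of the arch, fell further. Dlx5 had 30.3, 32.8 and 33.0 CPM in PA2 WT and 12.4, 9.43 and 12.7 CPM in PA3 WT (log2 fold change -1.48, SE 0.105, edgeR adjusted p 7.49e-07). Dlx6 had 37.5, 39.3 and 43.0 CPM in PA2 and 14.8, 13.6 and 16.4 CPM in PA3 (log2 fold change -1.42, SE 0.0876, edgeR adjusted p 2.5e-07). Both genes of the pair were left with similar shares of their PA2 level, 35.9% and 37.4%.

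The coding genes of the distal-most pair differed most between the arches. Dlx3 had 88.8, 89.8 and 96.1 CPM in PA2 WT, and 14.0, 13.7 and 25.8 CPM in PA3 WT. Its log2 fold change was -2.35 (SE 0.186, edgeR adjusted p 1.42e-06). Dlx4 had 402, 421 and 516 counts in PA2 and 11, 27 and 69 counts in PA3, a log2 fold change of -3.64 (SE 0.323, edgeR adjusted p 3.26e-06). PA3 WT replicate 3 was the highest PA3 library for both genes, and also for Dlx4os, which had 4, 2 and 45 counts in PA3 against 176, 334 and 387 in PA2 (log2 fold change -4.11, SE 0.533, edgeR adjusted p 7.07e-05). All 9 members were still called lower when that library was left out, and the log2 fold changes were -2.72 for Dlx3 (SE 0.101, edgeR adjusted p 4.32e-08), -4.44 for Dlx4 (SE 0.242, edgeR adjusted p 3.1e-07) and -6.46 for Dlx4os (SE 0.432, edgeR adjusted p 1.03e-06).

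Of the other antisense members, Dlx6os1 had 110.5, 123.5 and 137.6 CPM in PA2 WT and 29.7, 29.3 and 36.2 CPM in PA3 WT, a log2 fold change of -1.96 (SE 0.133, edgeR adjusted p 5.09e-07) and thus a lower remaining level (25.7%) than Dlx5 and Dlx6. Dlx1as had 21.96, 30.5 and 31.5 CPM in PA2 and 12.3, 14.2 and 15.8 CPM in PA3 (log2 fold change -0.99, SE 0.154, edgeR adjusted p 0.000303), close to Dlx1. Reads of Dlx1 could be counted for Dlx1as here, as the strands were not separated.

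In HIRE1del embryos the arches differed in the same direction. All 9 members were again called lower in PA3, where 33.4% of all genes were called and 14.7% were called lower. Their median log2 fold change was -1.34. Dlx4os and Dlx4 fell furthest, by 3.82 (log2; SE 0.504, edgeR adjusted p 8.81e-05) and 3.21 (SE 0.321, edgeR adjusted p 8.47e-06), followed by Dlx3 (-2.01, SE 0.186) and Dlx5 (-1.62, SE 0.104). Dlx6 (-1.34, SE 0.0866), Dlx6os1 (-1.20, SE 0.129), Dlx2 (-1.10, SE 0.0979), Dlx1 (-1.04, SE 0.131) and Dlx1as (-0.89, SE 0.150) followed. These values and those of the genotype comparisons share libraries.

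Other cells moved with the arch. In PA3 WT against PA2 WT, the 6 crest mesenchyme markers summed to 649 to 809 against 965 to 1077 CPM, the 8 epithelial markers to 508 to 642 against 254.6 to 282.9 CPM, and the 5 erythroid markers to 12112 to 23752 against 1491 to 2352 CPM. The 6 neuronal markers summed to 148 to 204 against 75.4 to 78.0 CPM and the 4 glial markers to 98.6 to 133 against 44.1 to 49.4 CPM. Scaled to the crest mesenchyme markers in place of all genes, 8 of 9 members were still called lower in WT and 9 of 9 in HIRE1del. This scaling moved the median of all genes to 0.48 in WT and 0.44 in HIRE1del. It called 9625 and 8961 of the 14383 genes in either direction, against 5252 and 4806 in the reported fit. On this scale the member not called in WT was Dlx2, at -0.29 (SE 0.156, edgeR adjusted p 0.104), and Dlx1, Dlx5, Dlx3 and Dlx4 were at -0.50, -0.998, -1.91 and -3.22. This scaling was added after seeing the data.

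Among 30 other genes of arch patterning, all tested, 13 were called higher and 6 lower in PA3 WT, with a median log2 fold change of 0.22. Hand1 (log2 fold change 1.95, SE 0.305) and Edn1, the endothelin ligand upstream of Dlx5 and Dlx6 (1.73, SE 0.327), rose most, and Pou3f3 (-3.89, SE 0.475) and Gsc, a homeobox gene of the distal arch (-3.05, SE 0.489), fell most. Of the 13 tested genes that flank the 3 Dlx loci, 2 were called higher (Pdk2, Fam117a) and 3 lower (Hat1, Sem1, Slc25a12). Pdk2, a kinase gene in the region of Dlx3 and Dlx4, had the largest of these differences (0.86, SE 0.119), which in size exceeded that of Dlx2 and was below those of the other 8 members. In HIRE1del, 13 of the 30 patterning genes were called higher and 8 lower between the arches, with Hand1 (2.41, SE 0.332) and Fgf8 (1.98, SE 0.329) highest and Gsc (-3.19, SE 0.483) and Pou3f3 (-2.75, SE 0.441) lowest, and of the flanking genes 4 were called higher and 3 lower.

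The second comparison asked whether loss of HIRE1 altered Dlx expression. In PA2, 0 of 9 members were called by edgeR, where 0.438% of all genes were called, and 6 of 9 had an unadjusted p under 0.05, against 8.57% of all genes. DESeq2 called 3 (Dlx1, Dlx2 and Dlx5, all higher) and limma-voom called 1 (Dlx2). The shares of all genes that these tests called are not reported here. The values lay on both sides of 0: the proximal and distal pairs were higher and the distal-most pair lower in HIRE1del than in WT. In all 6 coding genes the ranges were separate, but the 95% interval of Dlx4 (-0.87 to 0.26) held 0. How many of all genes had separate ranges was not counted.

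Dlx1 had 187, 197 and 246 CPM in PA2 HIRE1del, against 126, 149 and 161 CPM in PA2 WT (log2 fold change 0.53, SE 0.129, edgeR adjusted p 0.143). Dlx2 had 76.5, 67.3 and 65.3 CPM, against 51.3, 47.8 and 53.9 CPM (0.45, SE 0.0959, edgeR adjusted p 0.0721). In both genes every HIRE1del library lay above every WT library. Dlx5 had 38.1, 41.3 and 44.9 CPM in HIRE1del (0.37, SE 0.099, edgeR adjusted p 0.209) and Dlx6 had 44.9, 46.6 and 49.6 CPM (0.24, SE 0.0834, edgeR adjusted p 0.418). Dlx3 had 62.8, 75.9 and 72.2 CPM (-0.38, SE 0.172, edgeR adjusted p 0.568) and Dlx4 11.1, 13.5 and 12.7 CPM (-0.31, SE 0.263, edgeR adjusted p 0.808). Here every HIRE1del library lay below every WT library. Among the antisense members, Dlx1as was at 0.52 (SE 0.148, edgeR adjusted p 0.268) with separate ranges, and Dlx4os (0.31, SE 0.401) and Dlx6os1 (-0.11, SE 0.125) overlapped between genotypes. In the same libraries the neuronal markers summed to 55.9 to 58.7 CPM in HIRE1del against 75.4 to 78.0 CPM in WT and the glial markers to 32.7 to 40.98 against 44.1 to 49.4 CPM, while crest mesenchyme markers overlapped (931 to 1070 against 965 to 1077 CPM), and the part of these cells in the Dlx values was not tested.

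In PA3, 0 of 9 members were called by edgeR, where 0.216% of all genes were called, and 4 of 9 had an unadjusted p under 0.05, against 9.73% of all genes. DESeq2 called 3 (Dlx1, Dlx1as and Dlx6os1, all higher), and the share of all genes that it called is not reported here. Dlx6os1 had 47.4, 50.0 and 52.1 CPM in PA3 HIRE1del, against 29.7, 29.3 and 36.2 CPM in PA3 WT (log2 fold change 0.65, SE 0.132, edgeR adjusted p 0.0863). Dlx1 was at 0.47 (SE 0.132, edgeR adjusted p 0.282), Dlx1as at 0.62 (SE 0.155, edgeR adjusted p 0.213) and Dlx6 at 0.32 (SE 0.089, edgeR adjusted p 0.282). In these 4 members the genotypes did not overlap, nor did they in Dlx5 (0.22, SE 0.107). Dlx2 (0.10, SE 0.099), Dlx3 (-0.04, SE 0.19), Dlx4 (0.12, SE 0.377) and Dlx4os (0.60, SE 0.653) overlapped. How many of all genes did not overlap was not counted. The glial markers summed to 88.6 to 97.4 CPM in PA3 HIRE1del against 98.6 to 133 CPM in PA3 WT, while those of neurons (125 to 206 against 148 to 204 CPM) and of crest mesenchyme (638 to 855 against 649 to 809 CPM) overlapped, and the part of these cells was not tested.

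The interaction term (genotype effect in PA2 minus that in PA3) tested whether the deletion acted differently in the arches. By edgeR 0 of 9 members were called, where 0.0487% of all genes were called, and 2 of 9 had an unadjusted p under 0.05, against 5.52% of all genes. These were Dlx6os1 (-0.76, SE 0.182, edgeR p 0.00105, adjusted p 0.487) and Dlx2 (0.35, SE 0.138, edgeR p 0.0259, adjusted p 0.887). With a block for the replicate number that PA2 and PA3 libraries of a genotype share, Dlx6os1 was called (-0.78, SE 0.109, edgeR adjusted p 0.0156). DESeq2 without the block also called it (-0.76, DESeq2 adjusted p 0.0201). The blocked fit called 26 of all genes, and the number that DESeq2 called is not reported here. The 95% intervals of the interaction without the block were -0.34 to 0.46 for Dlx1, -0.17 to 0.46 for Dlx5 and -0.89 to 0.21 for Dlx3, on the log2 scale.

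**Figure D2:**
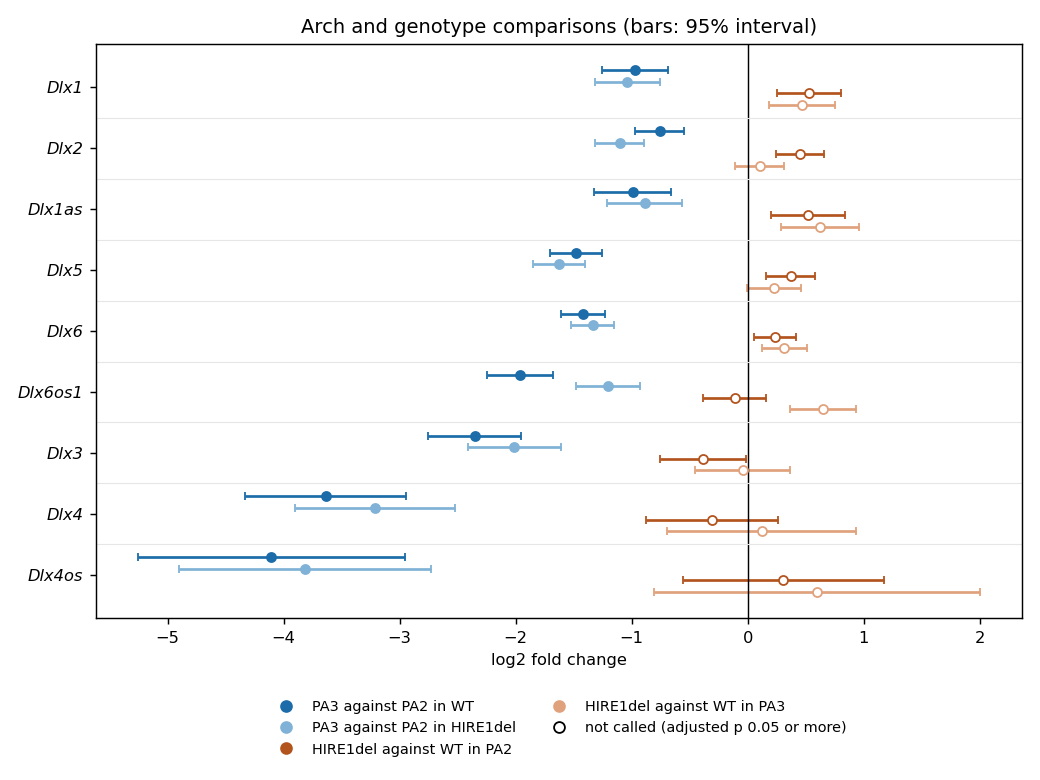
Log2 fold change of each member between the arches in each genotype and between the genotypes in each arch, with its 95% interval; filled points were called by edgeR at an adjusted p under 0.05. The 18 arch values lie left of 0 and are filled, and the 18 genotype values are open, with Dlx3, Dlx4 and Dlx6os1 left of 0 in PA2 and Dlx1, Dlx2, Dlx5 and Dlx6 right of it.

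Of the 30 other arch patterning genes, 5 were called higher and 0 lower in PA2 HIRE1del by edgeR, of which Pitx1, a homeobox gene of the first arch (3.64, SE 0.244), and Gbx2 (1.83, SE 0.295) rose most. In PA3 only Pitx1 of the 30 was called (2.33, SE 0.26), and for the interaction 0 were called by edgeR. Of the 13 tested flanking genes, Slc25a12, a mitochondrial carrier gene near Dlx1 and Dlx2, was called higher in PA2 HIRE1del (0.50, SE 0.0703, edgeR adjusted p 0.00458), a value between those of Dlx1 and Dlx2, and 0 were called in PA3.

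The balance of the pairs was followed as the log2 ratio of their summed counts in each library, with 0.5 added, which does not depend on library scaling. In PA2 WT, Dlx5 and Dlx6 together were below Dlx1 and Dlx2 (-1.45 ± 0.0582, SD, n = 3), and in PA3 WT further below (-1.98 ± 0.128), a difference of -0.53 with no overlap. Dlx3 and Dlx4 relative to Dlx1 and Dlx2 went from -0.87 ± 0.0966 in PA2 WT to -2.51 ± 0.364 in PA3 WT, a difference of -1.64 with no overlap. The difference between the arches was thus larger for the distal-most pair.

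The same ratios moved with genotype within PA2. Dlx3 and Dlx4 relative to Dlx1 and Dlx2 stood at -0.76, -0.91 and -0.94 in the 3 WT libraries and at -1.84, -1.57 and -1.87 in the 3 HIRE1del libraries, a difference of -0.88 beside a spread of 0.136 (pooled SD). Relative to Dlx5 and Dlx6 they went from 0.57 ± 0.0451 to -0.10 ± 0.107, a difference of -0.67, and Dlx5 and Dlx6 relative to Dlx1 and Dlx2 from -1.45 to -1.66 ± 0.0642, a difference of -0.21. None of these ranges overlapped between the genotypes. In PA3 all 3 ratios overlapped between genotypes, with differences of -0.33, -0.24 and -0.09. Any 2 of these 3 ratios determine the other, so they are not separate observations. The sums also weigh Dlx3 and Dlx1 most. In PA2 WT the log2 ratio of Dlx3 to Dlx4 was 2.57 ± 0.0512 and that of Dlx1 to Dlx2 1.51 ± 0.188. The ratios are descriptions without a test, and 0 of 9 members were called by edgeR between the genotypes in either arch.

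**Figure D3:**
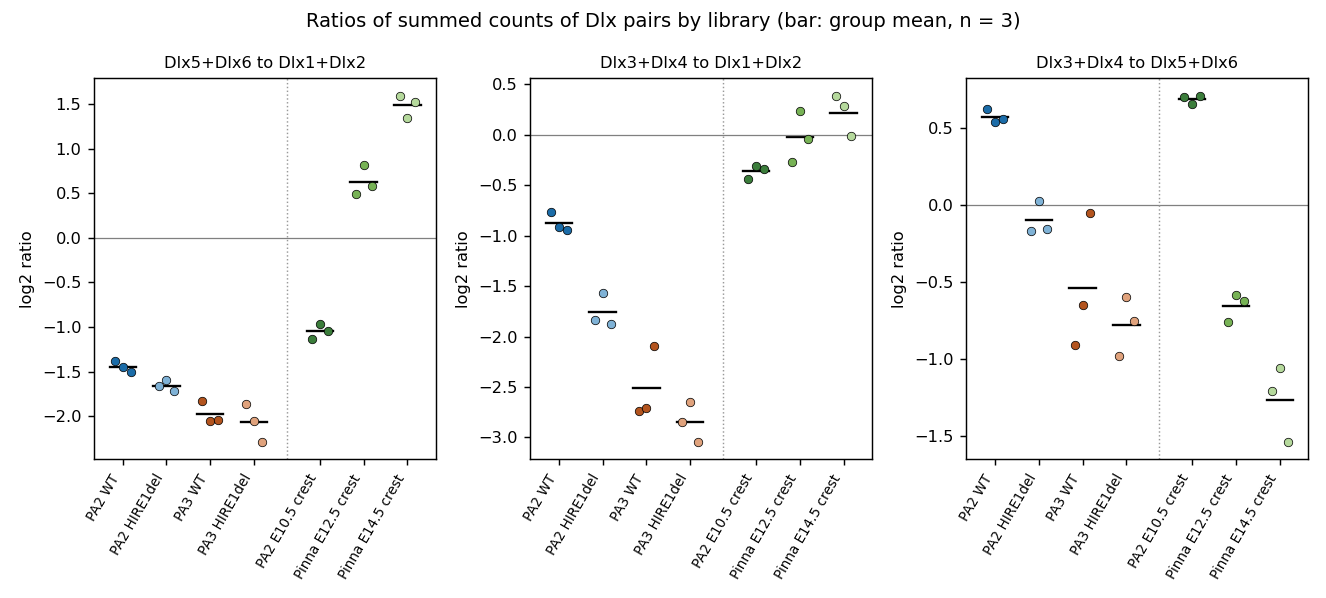
Log2 ratio of the summed counts of Dlx pairs in each library (0.5 count added), with the group mean as a bar; groups left of the dotted line are the genotype series, right of it the stage series. In PA2 the HIRE1del libraries lie below the WT libraries in all 3 ratios, and the ratio of Dlx5 and Dlx6 to Dlx1 and Dlx2 rises from -1.05 at E10.5 to 1.49 at E14.5.

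Dlx1as kept a nearly constant share of Dlx1 in the dissected arches, where the strands were not separated. Its count was 17.5 to 22.5% of that of Dlx1 in the 12 libraries, with group means of 19.1% (PA2 WT), 19.05% (PA3 WT), 19.1% (PA2 HIRE1del) and 21.3% (PA3 HIRE1del). Dlx6os1 did not keep such a constant share: it had 295, 314 and 320% of the Dlx6 count in PA2 WT but 201, 215 and 221% in PA3 WT. In HIRE1del it had 198, 276 and 254% in PA2 and 234, 271 and 303% in PA3. The arches were thus apart in WT (difference of the log2 ratio -0.54) and overlapped in HIRE1del (0.15). Relative to Dlx5, which lies on the same strand, the WT ratio was lower in PA3 than in PA2 (difference -0.48) and the HIRE1del ratio higher (0.44), with no overlap in either. Dlx4os was 43.8 to 79.3% of Dlx4 in PA2 WT and 95.6 to 107% in PA2 HIRE1del, and in PA3 WT it rested on 2 to 45 counts.

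**Figure D4:**
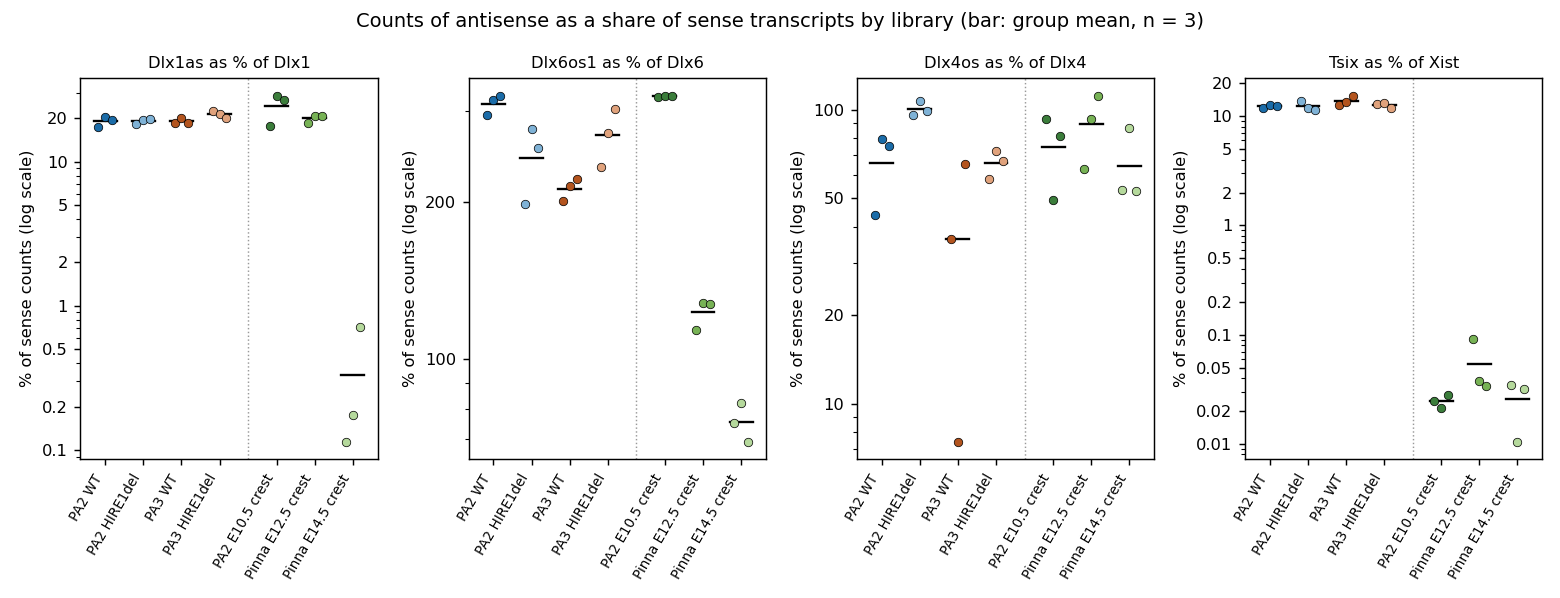
Count of Dlx1as, Dlx6os1 and Dlx4os as a percentage of Dlx1, Dlx6 and Dlx4 in each library (log scale), with Tsix as a percentage of Xist as a check on strand; bars are group means. Dlx1as stays at 17.5 to 28.6% of Dlx1 in all groups but the E14.5 pinna, and the Tsix share is 11.3 to 15.4% in the genotype series and 0.0104 to 0.0910% in the stage series.

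The third comparison followed sorted crest from PA2 to the pinna. From E10.5 to E12.5, 7 of 9 members were called by edgeR, 2 higher and 5 lower, where 68.8% of all genes were called (35% higher and 33.7% lower). The pairs diverged: the proximal genes fell, the distal genes rose and the distal-most pair split.

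Dlx2 had 72.5, 78.1 and 86.2 CPM at E10.5 and 27.3, 22.3 and 27.2 CPM at E12.5, which is a change of -1.63 (log2; SE 0.114, edgeR adjusted p 3.02e-07). Dlx1 had 142, 133 and 145 CPM at E10.5 and 86.7, 76.9 and 84.4 CPM at E12.5 (-0.76, SE 0.0912, edgeR adjusted p 1.99e-05). The fall of Dlx2 was thus steeper, and the log2 ratio of Dlx1 to Dlx2 went from 0.83 ± 0.124 to 1.70 ± 0.0779 with no overlap.

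Dlx6 had 52.2, 53.8 and 55.0 CPM at E10.5 and 102, 114 and 103 CPM at E12.5, a rise of 1.99 times (log2 fold change 0.99, SE 0.067, edgeR adjusted p 2.33e-07). Dlx5 had 45.3, 54.8 and 57.2 CPM at E10.5 and 57.9, 61.3 and 63.4 CPM at E12.5 (0.22, SE 0.0829, edgeR adjusted p 0.0369). The call of Dlx5 was lost without E10.5 replicate 1, the lowest library (0.12, edgeR adjusted p 0.14), and in 4 other alternatives. Dlx6os1, which spans the same locus, moved the other way, from 166, 172 and 176 to 116, 146 and 132 CPM (-0.39, SE 0.103, edgeR adjusted p 0.00598).

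Dlx3 had 142, 149 and 163 CPM at E10.5 and 78.2, 94.0 and 88.6 CPM at E12.5 (-0.80, SE 0.123, edgeR adjusted p 0.000134). Dlx4, its neighbour, had 16.6, 21.4 and 20.4 CPM and then 16.5, 22.8 and 19.6 CPM (0.01, 95% interval -0.34 to 0.37, edgeR adjusted p 0.955), and its ranges overlapped. Dlx4os was also not called (0.33, SE 0.34, edgeR adjusted p 0.407). Dlx1as fell from 25.2, 38.2 and 38.8 to 16.1, 16.0 and 17.4 CPM (-1.04, SE 0.166, edgeR adjusted p 0.000179).

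From E12.5 to E14.5 all 9 members were called lower by edgeR, where 65.7% of all genes were called and 33.1% were called lower, with a median log2 fold change of -2.002 beside -0.0076 over all genes. Dlx2 went to 3.81, 4.92 and 5.21 CPM (-2.46, SE 0.127, edgeR adjusted p 3.87e-08), Dlx3 to 20.4, 22.7 and 15.2 CPM (-2.16, SE 0.13, edgeR adjusted p 1.21e-07) and Dlx1 to 19.3, 24.0 and 18.5 CPM (-2.002, SE 0.0961, edgeR adjusted p 2.24e-08). Dlx6 (-1.40, SE 0.0673), Dlx5 (-1.02, SE 0.0837) and Dlx4 (-0.94, SE 0.164) fell less. Dlx5 was nearly the same in all 3 libraries of E14.5, at 29.9, 30.0 and 30.1 CPM.

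Dlx1as nearly disappeared at E14.5. It had 433, 489 and 513 counts at E12.5 and 1, 2 and 6 counts at E14.5, in libraries with more counts in all, while Dlx1 still had 876, 1143 and 847 counts there. The ratio of its rate (summed counts over summed TMM-scaled library sizes) between E12.5 and E14.5 was 254 (95% counting interval 133 to 557) and that between E10.5 and E14.5 was 524 (276 to 1148), where the intervals cover counting error only. Its share of the Dlx1 count went from 17.7 to 28.6% at E10.5 and 18.6 to 20.8% at E12.5 to 0.114 to 0.708% at E14.5. Dlx6os1 fell by 2.09 (log2; SE 0.109, edgeR adjusted p 3.87e-08) to 30.1, 35.6 and 26.5 CPM. Dlx4os fell by 1.39 (SE 0.348, edgeR adjusted p 0.00456), although the libraries of the stages overlapped (10.4 to 21.8 CPM at E12.5 and 4.42 to 10.7 CPM at E14.5).

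Over the whole interval from E10.5 to E14.5, all 9 members were called lower by edgeR, where 82% of all genes were called and 40% were called lower. The remaining level split the distal-most pair. It was 5.90% for Dlx2, 14.7% for Dlx1 and 12.9% for Dlx3, against 52.5% for Dlx4, 57.2% for Dlx5 and 75.5% for Dlx6. Dlx6os1 kept 17.9%, and Dlx4os kept 48.1% (log2 fold change -1.06, SE 0.349, edgeR adjusted p 0.015), whose call was lost without E10.5 replicate 3 (-0.93, edgeR adjusted p 0.051), E14.5 replicate 1 (-0.90, 0.0575) or E14.5 replicate 3 (-0.82, 0.0546).

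**Figure D5:**
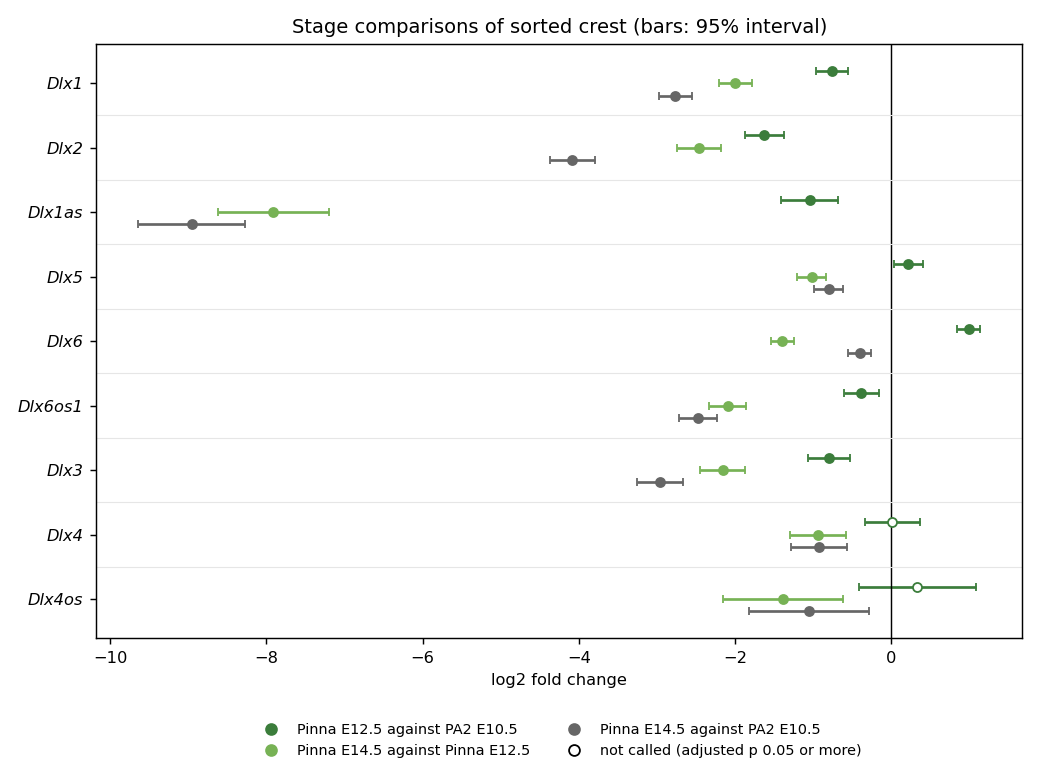
Log2 fold change of each member between the stages of sorted crest with its 95% interval; filled points were called by edgeR at an adjusted p under 0.05. From E10.5 to E12.5 Dlx6 and Dlx5 lie right of 0 and Dlx1, Dlx2, Dlx3, Dlx1as and Dlx6os1 left of it, and from E12.5 to E14.5 all 9 members lie left. The fitted values of Dlx1as at E14.5 rest on 9 counts in all and are no bound.

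The balance of the pairs moved in the crest. Dlx5 and Dlx6 relative to Dlx1 and Dlx2 stood at -1.05 ± 0.0895 at E10.5, 0.63 ± 0.17 at E12.5 and 1.49 ± 0.132 at E14.5 (log2 ratio of summed counts, SD, n = 3), with no overlap between any stages. The sign of this ratio depends on exon length, since per kb Dlx5 alone was above Dlx1 and Dlx2 at E10.5 already, whereas its change of 2.53 from E10.5 to E14.5 was 2.66 per exon base. Dlx3 and Dlx4 relative to Dlx5 and Dlx6 went from 0.69 ± 0.029 to -0.66 ± 0.0915 and -1.27 ± 0.245, also without overlap. Dlx3 and Dlx4 relative to Dlx1 and Dlx2 went from -0.36 ± 0.0701 to -0.03 ± 0.251 and 0.22 ± 0.207, where E12.5 and E14.5 overlapped. Within the distal-most pair, Dlx3 relative to Dlx4 went from 2.96 ± 0.152 to 2.16 ± 0.103 and 0.93 ± 0.102. Dlx6os1 stood at 319 to 320% of the Dlx6 count in the 3 libraries of E10.5, 113 to 128% at E12.5 and 69.3 to 82.1% at E14.5. The smaller transcript Dlx6os2, not a member, which lies over Dlx6 on the other strand, went from 7.31 to 11.7% of Dlx6 to 1.97 to 3.19% and 1.14 to 1.77%.

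Markers of cells other than crest mesenchyme were low in the sorted libraries but moved with stage. Crest mesenchyme markers summed to 1512 to 1745 CPM at E10.5, 3255 to 3528 CPM at E12.5 and 3566 to 3965 CPM at E14.5. Endothelial markers went from 6.76 to 9.58 to 109 to 173 CPM between E10.5 and E14.5, epithelial markers from 11.04 to 13.1 to 29.1 to 48.6 CPM, and glial markers from 20.1 to 23.2 to 83.4 to 98.6 CPM. Neuronal markers moved the other way, from 36.5 to 43.1 CPM at E10.5 to 22.3 to 25.9 CPM at E12.5 and 7.67 to 8.51 CPM at E14.5. The E10.5 cells came from the dissected PA2 and the later cells from the dissected pinna. Region and stage thus cannot be told apart in the comparisons with E10.5. E14.5 tissue was also digested with papain in place of trypsin and sequenced more deeply, which cannot be told apart from the stage. The part of the other cells in the Dlx values was not tested.

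Of the 30 other arch patterning genes, 27 were tested in the crest. From E10.5 to E12.5, 8 were called higher and 17 lower (median log2 fold change -1.17), with Bmp7 (1.97, SE 0.14) and Pou3f3 (1.303, SE 0.063) among the rises. Foxf1 fell from a mean of 34.3 to 0.0113 CPM, and Hand1 from 3.61 CPM to 0. From E12.5 to E14.5, 9 were called higher and 12 lower. Ednrb, an endothelin receptor (2.73, SE 0.183), was among the rises, and Pitx1 went from a mean of 0.46 CPM to 0. From E10.5 to E14.5, 8 were called higher and 15 lower. Of the 14 flanking genes tested, 6 were called in each direction from E10.5 to E12.5 and 4 in each direction from E12.5 to E14.5, with 6 in each direction over the whole interval. Tac1, a neuropeptide gene in the region of Dlx5 and Dlx6, was the largest of them, with a rise from 0.357 to 45.7 CPM by E12.5.

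The non-member genes whose level followed a Dlx gene most closely in both series were found by the smaller of the 2 Pearson correlations (log2 of CPM plus 1, 12 and 9 libraries, 12862 genes). They were Septin9, Ccdc40 and Crabp2 for Dlx2 (smaller r 0.966, 0.965 and 0.965), Bcl7c, Tle3 and Pcdh19 for Dlx5 (0.964, 0.959 and 0.955), and Gprc5b, Slc39a6 and Sox11 for Dlx3 (0.975, 0.975 and 0.973). The points fall into arches and stages, so these values mainly state that the genes shared the group pattern. Between members, Dlx5 with Dlx6 had r 0.993 over the 12 genotype libraries and 0.836 over the 9 stage libraries. Dlx3 with Dlx4 had 0.994 and 0.916, and Dlx2 with Dlx6, from different pairs, 0.959 and 0.369.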

How the data were processed

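Gene counts of 12 dissected arch libraries and 9 libraries of sorted crest were analysed. The values are raw counts per gene in the tables the authors deposited, made with QuasR by spliced alignment to GRCm38 and counting over UCSC known genes. Per the study's methods the kit was unstranded and counting used the orientation opposite to the gene. The low Tsix counts of the stage series do not match an unstranded kit, and this conflict was not resolved. The 9 members and the gene lists were chosen with earlier results of these data known. The main tool was edgeR 4.0.16 under R 4.3.3 (alternatives used DESeq2 1.42.0 and limma 3.58.1). A gene entered the fit if 2 or more libraries of its table reached 1 CPM (14383 genotype and 13438 stage genes). TMM set the library scaling, each group had its own mean, and the quasi-likelihood test was two-sided, with p-values adjusted by Benjamini-Hochberg over all genes tested and called at an adjusted p under 0.05. The tables were not tested against each other, since they differ in sorting, read layout and strand. Intervals are 95%. Rows without a symbol numbered 18 and held no member. Named genes of the lists are the 2 highest and 2 lowest called by log2 fold change, and the 3 non-member genes most like Dlx2, Dlx5 and Dlx3 are named. Some genes that this rule names are not reported here. The promoter window was 300 bases long. The reported edgeR fit was checked on simulated counts with 200 changed genes, for PA3 against PA2 in WT and for E12.5 against E10.5. It recovered 82 and 86.5% of the changed genes, and 5.75 and 5.98% of its calls were false. The other tests, the blocks, the interaction and the ratios were not checked in this way.

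The study states 3 independent biological replicates per group, and replicates differed by more than sampling noise (chi-square per degree of freedom 6.68 to 44.2). PA2 and PA3 libraries of the same number deviated together within each genotype. The correlations were 0.347, 0.222 and 0.21 for WT numbers 1 to 3 and 0.156, 0.235 and 0.311 for HIRE1del. That they share embryos is not stated in the labels or methods, and the pairing rests on these correlations. The reported arch and interaction fits did not use this pairing, and a block for it was an alternative. Correlations of like numbers had both signs across genotypes (-0.184 to 0.221) and across stages (-0.29 to 0.155). Unlike numbers were not compared. A count of 0 allows up to 3 counts; depending on depth, these are 0.0924 to 0.117 CPM per arch library and 0.0631 to 0.111 CPM per crest library (counting error only). Alternatives were DESeq2, limma-voom, other scaling, no filter, a fit to the 6 libraries compared, a replicate block and leaving out each library.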

Additional observations from a re-analysis of the deposited data

How the results depend on the processing

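The members called between the arches numbered 8 to 9 in WT and 9 in HIRE1del over 15 alternatives each, and between stages 6 to 7 (E10.5 to E12.5), 9 (E12.5 to E14.5) and 8 to 9 (E10.5 to E14.5) over 14 each. The calls between genotypes depended on the method, from 0 in the reported fit. In PA2, DESeq2 called 3, and limma-voom, no filter and a fit to the 6 libraries of the comparison each called 1 (Dlx2). In PA3, DESeq2 called 3, and no filter and the fit to the 6 libraries each called 1 (Dlx6os1). For the interaction, DESeq2 called 1 (Dlx6os1). The cause was not tested, and the shares of all genes that these alternatives called are not reported here. Leaving out any 1 library left 0 called in these 3 comparisons.

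With the replicate number as a block, 2 members were called in PA2 (Dlx1 and Dlx1as) and 3 in PA3 (Dlx1, Dlx1as and Dlx6os1). This block called 105 of all genes in PA2 and 54 in PA3, and no pairing of WT with HIRE1del embryos is stated. With the replicate block over PA2 and PA3 libraries of the same genotype and number, 1 was called for the interaction (Dlx6os1) and 9 in each arch comparison. Of all genes it called 26 for the interaction, 6098 between the arches in WT and 5625 in HIRE1del. A replicate block changed 0 of the stage counts, at 7, 9 and 9.

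Of the log2 ratios, Dlx1as to Dlx1 with 5 counts added was -4.88 from E10.5 and -4.63 from E12.5 to E14.5, against -6.28 and -6.03. Per exon base, Dlx3 and Dlx4 to Dlx5 and Dlx6 changed by -1.27 from E10.5 to E12.5 (reported -1.34), and Dlx5 and Dlx6 to Dlx1 and Dlx2 by 2.66 from E10.5 to E14.5 (reported 2.53).

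Values near 0 that were not called changed sign. Leaving out 1 library at a time gave interactions of -0.067 to 0.19 for Dlx1, -0.26 to 0.0017 for Dlx1as and -2.64 to 0.22 for Dlx4os. It gave genotype differences of -0.20 to 0.32 for Dlx3 and -0.26 to 0.93 for Dlx4 in PA3, and of -0.20 to 0.041 for Dlx6os1 in PA2. By limma-voom Dlx3 was at 0.0031 in PA3. Dlx4 from E10.5 to E12.5 was at -0.0013 with DESeq2 size factors, -0.0019 by DESeq2 and -0.0013 without the filter, and at -0.11 to 0.12 with 1 library left out. Of the other alternatives for single members, 1026 kept direction and side of the threshold. Depth limited Dlx4 and Dlx4os in PA3 (2 to 69 counts per WT library) and Dlx1as at E14.5.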
